A study of Mus musculus with 10 samples.

Results

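Hepatocytes dispose of ammonia through glutamine and ornithine, and 6 genes of this handling were followed here over lobule position and time of day. They were taken by name, as rows glul, slc1a2, rhbg, oat, gls2 and glud1 of the count tables, and all 6 were found among 14812 gene rows. The single-cell RNA libraries came from C57BL/6 male mice, 3 months after birth, fed chow without restriction and anaesthetised with ketamine and xylazine, with no genetic or drug contrast between groups. Livers were perfused with collagenase, hepatocytes were enriched on Percoll, and libraries followed the 10x Chromium 3' chemistry in version 2. The groups were 4 zeitgeber times, which count hours from lights on by convention, with 3 libraries at ZT0 (A, B, C), 2 at ZT6 (A, B), 3 at ZT12 (A, B, C) and 2 at ZT18 (A, B). How many mice stand behind a library is not stated. The p-values rest on the spread between these libraries, partly pooled over genes, which may in part be technical.

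Blood crosses the liver lobule from the portal side to the central vein. Periportal hepatocytes release ammonia from amino acids and fix it in urea, whereas a narrow rim of hepatocytes around the central vein captures what remains as glutamine. In that rim Glul encodes glutamine synthetase, which joins ammonia to glutamate, Slc1a2 encodes a glutamate importer, and Rhbg encodes an ammonia transporter of the Rhesus family. Oat encodes ornithine aminotransferase, a mitochondrial enzyme that turns ornithine into glutamate semialdehyde. On the opposite side Gls2 encodes the liver-type glutaminase, which frees ammonia from glutamine. Glud1 encodes glutamate dehydrogenase, a mitochondrial enzyme that interconverts glutamate with ammonia and 2-oxoglutarate.

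All 6 are annotated as protein-coding in RefSeq on GRCm38.p6. Glul lies at chr1:153899929-153909723, Slc1a2 at chr2:102658239-102790784, and Rhbg at chr3:88242874-88254739. Oat lies at chr7:132557475-132576398, Gls2 at chr10:128194635-128210004, and Glud1 at chr14:34310727-34345033. The counts are read from transcript 3' ends and carry no information on which start site was used. The 250 bases before the RefSeq start are shown for Glul, Slc1a2 and Oat, the strongly pericentral genes with a RefSeq window here. Each runs 5′ to 3′ on the gene's own strand, and capitals mark the core letters of TCF/LEF sites, the DNA elements of Wnt signalling. The windows are chr1:153899679-153899928 on the plus strand for Glul, chr2:102706188-102706437 on the plus strand for Slc1a2 and chr7:132576399-132576648 on the minus strand for Oat.
Glul: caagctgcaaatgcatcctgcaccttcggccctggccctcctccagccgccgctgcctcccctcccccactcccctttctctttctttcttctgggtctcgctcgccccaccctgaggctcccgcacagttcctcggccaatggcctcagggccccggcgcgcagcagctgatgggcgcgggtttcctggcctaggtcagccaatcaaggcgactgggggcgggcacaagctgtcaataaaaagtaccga
Slc1a2: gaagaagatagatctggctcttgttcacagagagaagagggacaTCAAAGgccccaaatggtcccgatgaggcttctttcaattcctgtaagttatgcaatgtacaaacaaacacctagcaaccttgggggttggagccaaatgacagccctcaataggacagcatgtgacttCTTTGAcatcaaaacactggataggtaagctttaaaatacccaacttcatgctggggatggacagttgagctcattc
Oat: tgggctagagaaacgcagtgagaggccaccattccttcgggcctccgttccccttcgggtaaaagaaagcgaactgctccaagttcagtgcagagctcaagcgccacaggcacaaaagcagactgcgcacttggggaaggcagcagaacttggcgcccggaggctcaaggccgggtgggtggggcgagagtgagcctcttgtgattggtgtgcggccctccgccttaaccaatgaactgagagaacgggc
The motifs searched on both strands were CTTTGA and CTTTGT, as TCF/LEF cores, and CAAAGT, a core of HNF4A-like sites, which can overlap the reverse complement of CTTTGT. The Slc1a2 window held CTTTGA at 2 places. On the plus strand it covered bases 77 to 72 before the start, and on the minus strand bases 206 to 201. Over all 32851 RefSeq windows of this length, 13.8% held CTTTGA and 1.37% held at least 2 copies. CTTTGT was in 16.5% of windows, CAAAGT in 12.6%, and either TCF/LEF core in 27.6%. None of the 3 motifs was in the Glul or Oat window, nor in that of Glud1, which was matched too. The Slc1a2 window lies inside the annotated span of the gene, upstream of an internal start. These matches describe letters only and are not evidence of binding.

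The 10 libraries held 710 to 2860 cells and 1454623 to 7144803 UMIs (distinct tagged molecules), 18378 cells in all, with 1588 to 2662 UMIs in the median cell. Levels are given as CPM, UMIs scaled to a common total over the cells summed. The 5 hepatocyte markers summed to 34972 to 71279 CPM per library. Endothelial markers summed to 3.44 to 19.1 CPM, with 3 of 10 at 0 UMIs, and central vein endothelial markers to at most 1.01, with 1 of 5 at 0. Macrophage (5 of 10 at 0), lymphocyte (5 of 7 at 0) and neutrophil markers reached at most 6.81, 0.314 and 7.84 CPM. Stellate, cholangiocyte and erythroid markers summed to 3.44 to 15.9, 0.773 to 32.5 and 72.2 to 361 CPM. Cells carry no barcode sequence in the tables, so shared barcodes could not be counted, and no cell column was identical in 2 libraries.

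The first question was how the genes are placed along the lobule. Cells of each library were ordered by 8 periportal and 7 pericentral landmark genes, none of them a member, and cut into 3 equal zones. All 6 genes differed between the periportal and pericentral zones, 5 higher near the central vein and Gls2 higher near the portal side. Of the 8904 genes tested outside the landmarks, 24.5% differed, so a difference as such was common, and its size set these genes apart from one another.

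Glul in the pericentral zone measured 372, 369 and 2070 CPM at ZT0 (libraries A, B and C), 471 and 684 at ZT6, 1749 (A), 621 (B) and 3797 (C) at ZT12, and 391 and 168 at ZT18. In the periportal zone it measured 32.8, 32.4 and 29.0, then 19.9 and 26.1, then 83.2, 42.9 and 95.4, and 52.2 and 44.9 CPM. Every pericentral value lay above every periportal value, and both C libraries were the highest of their time in the pericentral zone. The fitted log2 difference, periportal minus pericentral, was -4.02 ± 0.21 (SE, 10 libraries; edgeR adjusted p = 4.5e-17), a 16.2-fold difference.

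Slc1a2, the glutamate importer, had the largest difference of the 6. Its pericentral values were 42.4, 35.6 and 316 CPM at ZT0, 90.1 and 166 at ZT6, 403, 139 and 707 at ZT12, and 63.4 and 43.5 at ZT18. No periportal zone exceeded 5.20 CPM (ZT12A), and the 10 periportal zones together held 18 UMIs. The zones did not overlap, and the log2 difference was -6.71 ± 0.19 (SE, 10 libraries; edgeR adjusted p = 1.8e-24). A fold from so few periportal UMIs is imprecise, but no single library left out moved the log2 difference beyond -6.90 to -6.38.

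Rhbg, the ammonia transporter, had the fewest UMIs of the 6. Its pericentral values were 5.69, 8.80 and 49.4 CPM at ZT0, 6.98 and 16.7 at ZT6, 19.5, 13.98 and 78.0 at ZT12, and 6.14 and 0.853 at ZT18. Its periportal values ran from 0 to 3.62 CPM. In 9 of 10 libraries the pericentral zone was the higher, and ZT18B, with 1 pericentral and 2 periportal UMIs, was the exception. The log2 difference was -3.24 ± 0.32 (SE, 10 libraries; edgeR adjusted p = 4.8e-10).

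Oat, which was kept out of the landmarks, measured 522, 528 and 2431 CPM in the pericentral zone at ZT0, 742 and 1632 at ZT6, 2313, 665 and 4053 at ZT12, and 598 and 357 at ZT18. Its periportal values lay between 13.3 and 69.5 CPM, with a median of 23.9, and the zones did not overlap. The log2 difference was -5.18 ± 0.15 (SE, 10 libraries; edgeR adjusted p = 1.8e-24), a 36.2-fold difference.

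Gls2 ran the other way in 10 of 10 libraries. In the periportal zone it measured 214, 361 and 438 CPM at ZT0, 361 and 375 at ZT6, 321, 329 and 742 at ZT12, and 369 and 362 at ZT18. Its pericentral values ran from 10.4 to 96.8 CPM, all below the lowest periportal value. The log2 difference was 2.90 ± 0.20 (SE, 10 libraries; edgeR adjusted p = 6.1e-14). In both C libraries, where Glul was highest, pericentral Gls2 was lowest, at 10.4 (ZT0) and 17.2 CPM (ZT12). With all libraries ordered together and cut alike, the pericentral zone took 56.9% of ZT0C and 49.5% of ZT12C cells. It took 23.8% (ZT18A) to 45.4% (ZT12A) of the cells of the other libraries. A zone cut within each library therefore need not cover the same stretch of the lobule in each. The part of this in the levels was not tested.

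Glud1 was nearly level. Its pericentral mean was 816.6 ± 138 CPM and its periportal mean 637 ± 98.0 (SD, n = 10), and although these ranges overlapped, the pericentral zone was the higher within each of the 10 libraries. The log2 difference was -0.25 ± 0.06 (SE; edgeR adjusted p = 0.0019), a 1.19-fold difference. With library size alone as the scaling, the median of all genes in this comparison moved to -0.11 and 27.5% of 2515 calls were periportal, against 49.4% of 2182, but the 6 genes kept their directions and calls.

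To see how narrow the rim is, the same order was cut into 8 equal layers, layer 1 lying nearest the central vein. Layer 1 held 69.9% of the sum of the layer means for Glul, 74.8% for Slc1a2, 65.0% for Rhbg and 58.7% for Oat. With all libraries ordered together, layer 1 took 32.5% of ZT0C and 29.4% of ZT12C cells. It took 5.96% (ZT18A) to 21.8% (ZT12A) of the cells of the other libraries. Layers cut within each library therefore need not cover the same stretch of the lobule in each, and the part of this in these shares was not tested. Between layers 1 and 2 of each library 5 of the 6 genes differed, where 1.57% of 8890 genes did. Glul averaged 2269 CPM (lowest 252, median 1334, highest 7364, 10 libraries) in layer 1 and 527 (90.9, 179 and 2485) in layer 2, a log2 step of 2.35 ± 0.16 (SE; edgeR adjusted p = 3.7e-25). Layer 1 was the higher in 10 of 10 libraries, although the 2 layers overlapped between libraries.

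The glutamate importer and the ammonia transporter also stepped down after layer 1. Slc1a2 averaged 418 CPM (87.2, 289 and 1309) in layer 1, 106 (4.21, 23.2 and 501) in layer 2 and 20.2 in layer 3, a first log2 step of 2.31 ± 0.14 (SE, 10 libraries; edgeR adjusted p = 1.1e-27). Rhbg averaged 43.1, 10.3 and 3.62 CPM in these layers, with a first step of 2.06 ± 0.26 (edgeR adjusted p = 1.3e-09). Layer 1 was above layer 2 in 10 of 10 libraries for both.

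Oat declined over a wider stretch. Its layer 2 kept 39.1% of the layer 1 mean and its layer 3 kept 17.3%, whereas Glul kept 23.2% and 6.37% and Slc1a2 25.4% and 4.83%. These shares were not tested against one another, and they compare means over layers cut within each library. The medians of layers 1, 2 and 3 were 1424, 412 and 194 CPM for Oat. They were 1334, 179 and 81.2 CPM for Glul and 289, 23.2 and 6.86 CPM for Slc1a2. The first Oat step was 1.58 ± 0.11 (log2 ± SE, 10 libraries; edgeR adjusted p = 7.7e-24), from 2456 to 959 CPM. Oat then fell from each layer to the next in 10 of 10 libraries as far as layer 5, at 82.2 CPM, and Glul and Slc1a2 did so as far as layer 3. Rhbg was higher in layer 2 than in layer 3 in only 5 libraries, so its order beyond layer 2 was not resolved.

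Gls2 rose outwards from 23.3 ± 14.7 CPM (SD, n = 10) in layer 1 to 53.4 ± 33.5 in layer 2, 115 ± 67.8 in layer 3, 220 ± 93.6 in layer 4 and 403 ± 140.6 in layer 8. The difference of layer 1 from layer 2 was -1.30 ± 0.30 (log2 ± SE; edgeR adjusted p = 0.0028), lower in layer 1 in 9 libraries. With odd-numbered landmarks alone it was -0.86 (edgeR adjusted p = 0.097). Layers 6, 7 and 8 were at 362, 389 and 403 CPM, differences well within their spread.

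Glud1 measured 835 ± 148 CPM (SD, n = 10) in layer 1 and 814 ± 133 in layer 2, and the difference did not pass the test (0.02 ± 0.06, log2 ± SE; edgeR adjusted p = 0.979). Its clearest descent was between layers 4 and 5, from 769 ± 133 to 666 ± 123 CPM, in 10 of 10 libraries. At the portal end 0 of the 6 genes differed between layers 8 and 7, as did 0% of all genes by edgeR (376 had an unadjusted p under 0.05, none of them a member, and DESeq2 called 0).

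**Figure D1:**
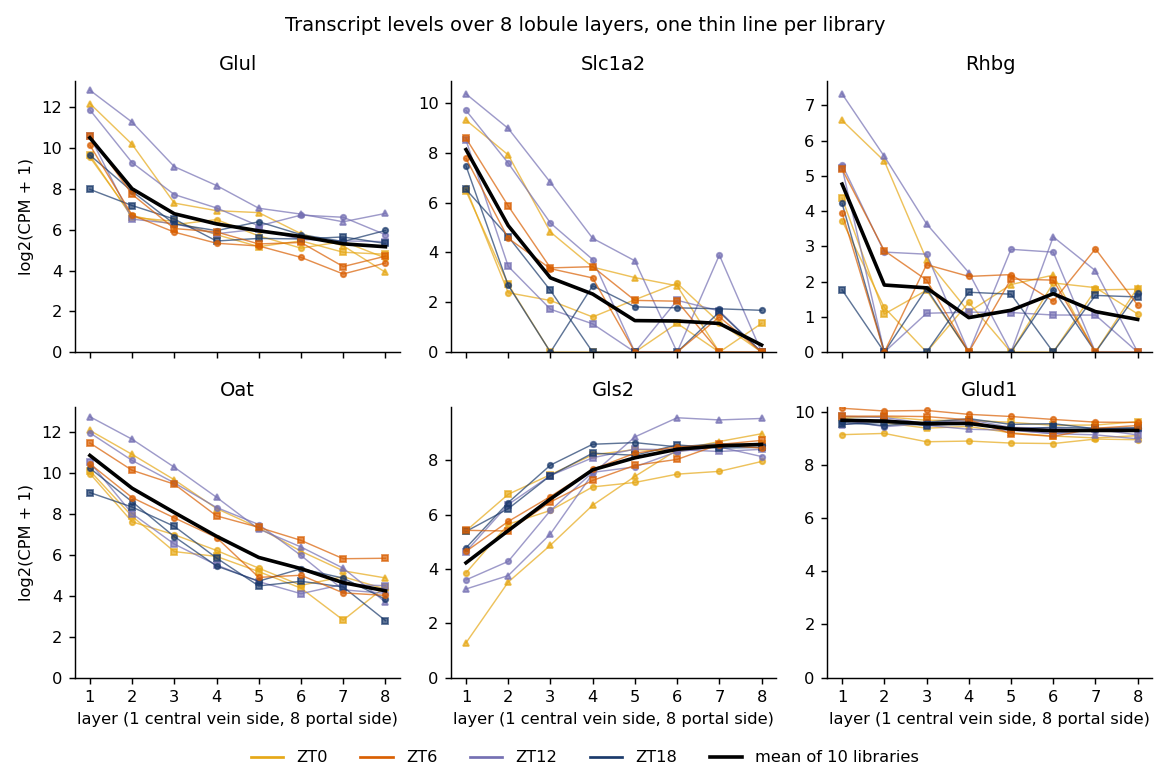
Levels of the 6 genes over 8 layers on the log2(CPM + 1) scale, layer 1 nearest the central vein; thin lines are the 10 libraries coloured by time, with circles, squares and triangles for libraries A, B and C, and the thick black line is their mean. Glul, Slc1a2 and Rhbg drop from layer 1 to layer 2 in 10 of 10 libraries, Oat falls over more layers, Gls2 rises outwards, and Glud1 stays nearly flat.

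The rim itself was then examined cell by cell. Each cell was thinned to 1000 UMIs, and a pericentral-zone cell with at least 3 Glul UMIs was called Glul-rich, a range of a measured level and not a cell type. There were 527 such cells, 2.87% of 18378 (95% exact interval 2.63% to 3.12%, counting error only), with a median of 9 Glul UMIs. Near the threshold, 104 of them had 3 or 4 Glul UMIs and 95 further pericentral cells had 2, while 10 cells with 3 or more lay outside the pericentral zone. Layer 1 held 440 of the 527, layer 2 held 75 and layer 3 held 12. These few cells carried 72.9% of all Glul UMIs, which the rule selected for, and also 66.5% of Slc1a2, 61.0% of Rhbg and 39.5% of Oat UMIs. They carried 0.0824% of Gls2 UMIs and 3.57% of Glud1 UMIs. These shares pool all libraries, and ZT0C held 127 and ZT12C 131 of the 527 cells. By library, from ZT18B (lowest) to ZT12C (highest), they ran from 9.09% to 85.3% for Glul and 7.69% to 82.9% for Slc1a2. The same libraries gave 0% to 81.8% for Rhbg and 2.61% to 60.2% for Oat.

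Glul-rich cells were compared with the other pericentral cells of the same library in 9 libraries. ZT18B, with 6 Glul-rich cells, was left out. For the edgeR SEs and p-values here and within Glul-rich cells below, the spread was in effect pooled over all genes. They do not measure each gene's own spread over these libraries. Glul was not tested, since it defined the cells. Of the other 5 genes, 4 differed, where 5.36% of 8925 genes did. Slc1a2 in Glul-rich cells measured 692, 674 and 972 CPM at ZT0, 1078 and 1240 at ZT6, 2172, 1340 and 1890 at ZT12 and 911 in ZT18A. In the other pericentral cells it measured 13.5, 17.7 and 135, then 33.2 and 78.8, then 82.0, 48.3 and 160, and 33.9 CPM. The classes did not overlap, and the log2 difference was 4.10 ± 0.11 (SE, 9 libraries; edgeR adjusted p = 1.9e-277).

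Rhbg was also higher in the rim. It averaged 129 ± 53.4 CPM (SD, n = 9) in Glul-rich and 6.51 ± 4.25 in other pericentral cells, with no overlap between 64.0 to 222 and 2.70 to 15.1 CPM. The log2 difference was 4.10 ± 0.23 (SE; edgeR adjusted p = 7.0e-66), from 189 and 71 UMIs. Oat averaged 5575 ± 1616 CPM (3992 to 8508) against 919 ± 613 (367 to 1992), again without overlap, which is 2.58 ± 0.10 on the log2 scale (SE; adjusted p = 4.2e-151 by edgeR). The pericentral cells around the rim still held much Oat. Pooled over libraries, there were 69.5 Oat UMIs per 100 Glul UMIs in Glul-rich cells and 400 in the other pericentral cells, and 14.6 and 30.6 Slc1a2 UMIs. Because Glul itself split these classes, a higher ratio to Glul in the other cells was in part built in.

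Gls2 was scarce in the rim. Glul-rich cells of the 9 libraries held 8 Gls2 UMIs in all, in ZT0A (1), ZT0C (4), ZT6A (2) and ZT6B (1), and 5 libraries had 0. The other pericentral cells held 727, at 52.5 ± 30.7 CPM (SD, n = 9). Gls2 was the lower in Glul-rich cells in 9 of 9 libraries, by -2.70 ± 0.39 on the log2 scale (SE; edgeR adjusted p = 6.3e-10). In ZT0C the 2 classes were near each other, at 8.81 and 10.9 CPM. Glud1 measured 909 ± 190 CPM in Glul-rich and 812 ± 147 in other pericentral cells, and was not called (log2 difference -0.06 ± 0.10, SE; edgeR adjusted p = 0.871). The sign for Glud1 depended on the scaling: it was 0.17 with library size alone and 0.10 with DESeq2. The median of all genes in this comparison was -0.12 with TMM, 0.06 with library size and 0.00 with DESeq2 (-0.00255), and 26.8%, 61.8% and 51.2% of the calls were higher in Glul-rich cells. The 4 calls and their directions held under each.

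**Figure D2:**
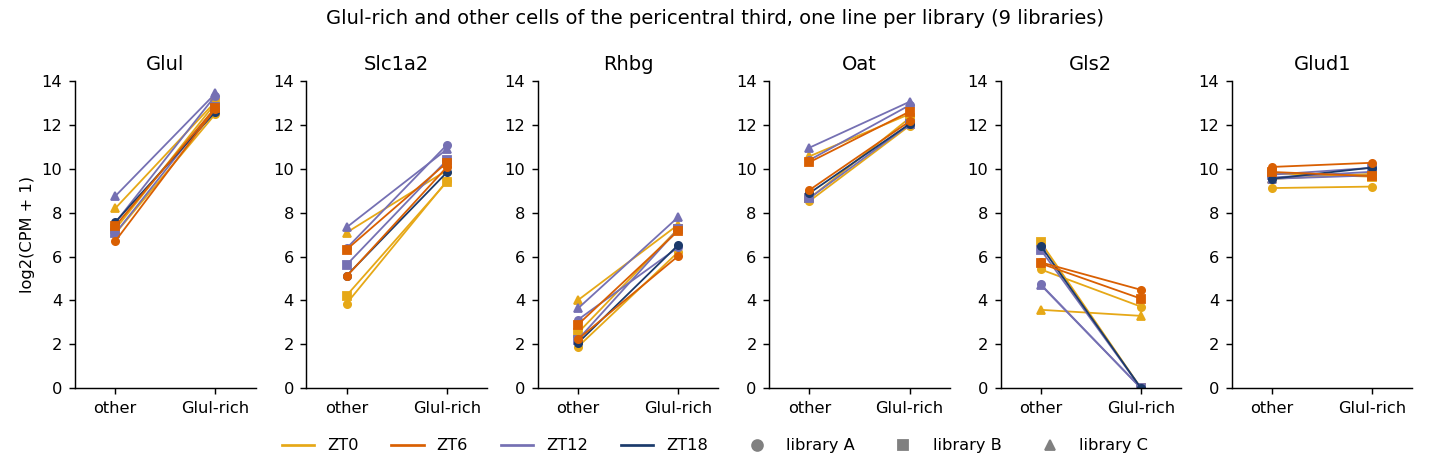
Levels of the 6 genes in Glul-rich cells and in the other cells of the pericentral zone on the log2(CPM + 1) scale; each line joins both classes of 1 of 9 libraries, coloured by time, with symbols for libraries A, B and C. Slc1a2, Rhbg and Oat lie higher in Glul-rich cells in 9 of 9 libraries, Gls2 lies lower in 9 of 9, and Glud1 lies higher in 7 of 9; Glul chose the cells and is a description.

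Counts in single cells showed the same contrast. Of cells thinned to 1000 UMIs, 67.7% of Glul-rich cells had a Slc1a2 UMI (95% exact interval 63.6% to 71.7%), against 3.998% of other pericentral (3.50% to 4.54%), 0.343% of middle-zone (0.212% to 0.523%) and 0.114% of periportal cells (0.0460% to 0.235%). Without thinning these shares were 86.3%, 6.57%, 0.734% and 0.261%. The exact intervals here and below pool cells over libraries and give counting error only. By library (ZT18B left out), the thinned Slc1a2 share ran from 50% to 86.1% of Glul-rich cells, with a median of 61.9%. In other pericentral cells it ran from 1.62% to 10.8%. Seen from the other side, 357 of the 609 cells with a Slc1a2 UMI (58.6%) were Glul-rich, as were 66 of the 115 cells with a Rhbg UMI (57.4%) and 517 of the 3233 with an Oat UMI (16.0%). In 353 of the 527 Glul-rich cells (67.0%) Slc1a2 and Oat were both detected. A Rhbg UMI was seen in 12.5% of Glul-rich cells (9.82% to 15.7%) and in 0.446% of other pericentral cells (0.289% to 0.658%). By library (ZT18B left out), the Rhbg share of Glul-rich cells ran from 3.70% to 19.8%. At these depths a missing Rhbg UMI does not show a cell without the transcript.

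Gls2 UMIs were present in 4 of 527 Glul-rich cells, or 0.759% (0.207% to 1.93%), in 6.03% of other pericentral cells, in 23.1% of middle-zone and in 31.0% of periportal cells (29.9% to 32.2%). Unthinned, the shares were 1.52%, 12.1%, 39.7% and 54.7%. By library (ZT18B left out), the thinned Gls2 share ran from 0% to 3.70% of Glul-rich cells and from 17.9% to 52.2% of periportal cells. Glud1 UMIs were present in 58.8%, 55.4%, 49.4% and 47.3% of cells of the 4 classes. Median depth was 1796, 1997, 1903 and 2031 UMIs in the same order, and mitochondrially encoded genes took a median of 12.3%, 14.8%, 17.4% and 19.1% of a cell's UMIs. The part of this mitochondrial share in the results was not tested. Glul-rich cells kept 32357 CPM of hepatocyte markers, 46595 being the level in other pericentral cells. Their central vein endothelial markers were at 0, and their 10 endothelial markers summed to 11.3 CPM (0 to 30.3 by library, 2.56 to 27.4 in other pericentral cells).

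Free RNA can give UMIs to cells that do not express a gene, so the low levels of the periportal zone were set beside the rim. There, 4.003% of thinned cells had a Glul UMI (3.53% to 4.52%), 2.74% an Oat UMI and 0.212% a Rhbg UMI. By library (ZT18B left out), the Glul share of periportal cells ran from 1.61% to 8.05%. Periportal cells held 590 Glul, 389 Oat and 18 Slc1a2 UMIs, which is 3.05 Slc1a2 and 65.9 Oat UMIs per 100 Glul UMIs. The Oat ratio was 69.5 in Glul-rich, 400 in other pericentral and 158 in middle-zone cells. The Slc1a2 ratio was 14.6, 30.6 and 5.12 in the same order. Glul chose the Glul-rich class, and the ratios of free RNA itself were not measured. The source of the periportal UMIs was not tested.

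The second question was whether these genes follow the time of day. Whole-library levels mix the number of rim cells with the RNA in each, and the libraries differed widely within a time. Glul measured 156, 156 and 786 CPM at ZT0 (A, B and C), 181 and 245 at ZT6, 619, 240 and 1321 at ZT12, and 163 and 86.0 at ZT18. ZT0 and ZT12 overlapped, both ZT18 values lay below both ZT6 values, and the C library was the highest at both ZT0 and ZT12. Slc1a2 measured 15.7, 12.9 and 116 CPM at ZT0, 32.7 and 55.6 at ZT6, 131, 46.7 and 232 at ZT12, and 21.4 and 14.01 at ZT18. Rhbg ran from 1.35 CPM (ZT18B) to 27.6 (ZT12C), and Oat from 135 (ZT18B) to 1437 (ZT12C).

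The 24-h rhythm test over whole libraries called 0 of the 6 genes by edgeR, where 5.14% of 8908 genes were called. None had an unadjusted p under 0.05, and DESeq2 called 0 of the 6. Glul had a log2 amplitude (mean to peak) of 0.55 (edgeR adjusted p = 0.668), Slc1a2 0.89 (adjusted p = 0.423) and Oat 0.78 (adjusted p = 0.545), with fitted peaks at ZT 9.36, 9.35 and 7.86. These peaks are loose: with 1 library left out, that of Glul ran from ZT 6.08 (without ZT12C) to 14.58 (without ZT18B) and its amplitude from 0.35 to 1.11. The peak of Slc1a2 ran from ZT 7.93 to 11.91 and that of Oat from 6.09 to 9.57. Gls2 had 0.27 and Glud1 0.08. Between ZT18 and ZT6, which share an index column within each time, 0 of the 6 differed by edgeR and 3.79% of all genes did. None of the 6 had an unadjusted p under 0.05 and DESeq2 called 0. The ZT18 values of Glul, Slc1a2, Rhbg and Oat were all below those of ZT6, as were those of Glud1, while those of Gls2 were above. Each time has only 2 libraries, and how many of all genes separate this way was not counted. Glul, Slc1a2, Rhbg and Oat were carried in part by the same Glul-rich cells, so they are not independent observations. Because both ZT18 libraries are in the index column that no other time used, time and column cannot be told apart there.

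ZT12 against ZT0 also gave 0 of 6 by edgeR (0 at an unadjusted p under 0.05, 0 by DESeq2), where 3.44% of all genes were called. ZT12 and ZT0 libraries of the same letter share an index column, and they deviated together across genes. Within these 3 pairs Slc1a2 rose 8.36-fold (A), 3.62-fold (B) and 2.01-fold (C). With the letter as a replicate block Slc1a2 did pass, at a log2 difference of 1.81 (edgeR adjusted p = 0.0121) against 1.37 ± 0.67 (SE, edgeR adjusted p = 0.345) without it. Of all genes 504 were called with the block and 306 without it. The block also gave each letter a common effect over all 4 times. Yet ZT6 and ZT18 letters did not pair (r = 0.0262), and ZT0A and ZT6A had r = -0.035. Glul and Oat were higher at ZT12 in 3 of 3 pairs too, but did not pass with the block, at log2 differences of 1.004 (edgeR adjusted p = 0.070) and 0.89 (adjusted p = 0.238). Without ZT0C the difference was 2.999 for Slc1a2 (edgeR adjusted p = 0.0048) and 1.97 for Glul (adjusted p = 0.0481), and without both C libraries it was 2.44 for Slc1a2 (adjusted p = 0.0149). Leaving out ZT12C instead lowered it to 0.805 for Slc1a2 (edgeR adjusted p = 0.67) and 0.174 for Glul (adjusted p = 0.938). For Slc1a2 it was 0.983 without ZT0A and 0.924 without ZT0B (edgeR adjusted p = 0.598 and 0.52). The 24-h amplitude of Slc1a2 likewise passed with the block (1.14, edgeR adjusted p = 0.0156). In separate fits it passed without ZT0C (1.68, edgeR adjusted p = 0.0072) and without both C libraries (1.37, edgeR adjusted p = 0.0162). Without ZT12C it was 0.661 (edgeR adjusted p = 0.678).

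**Figure D3:**
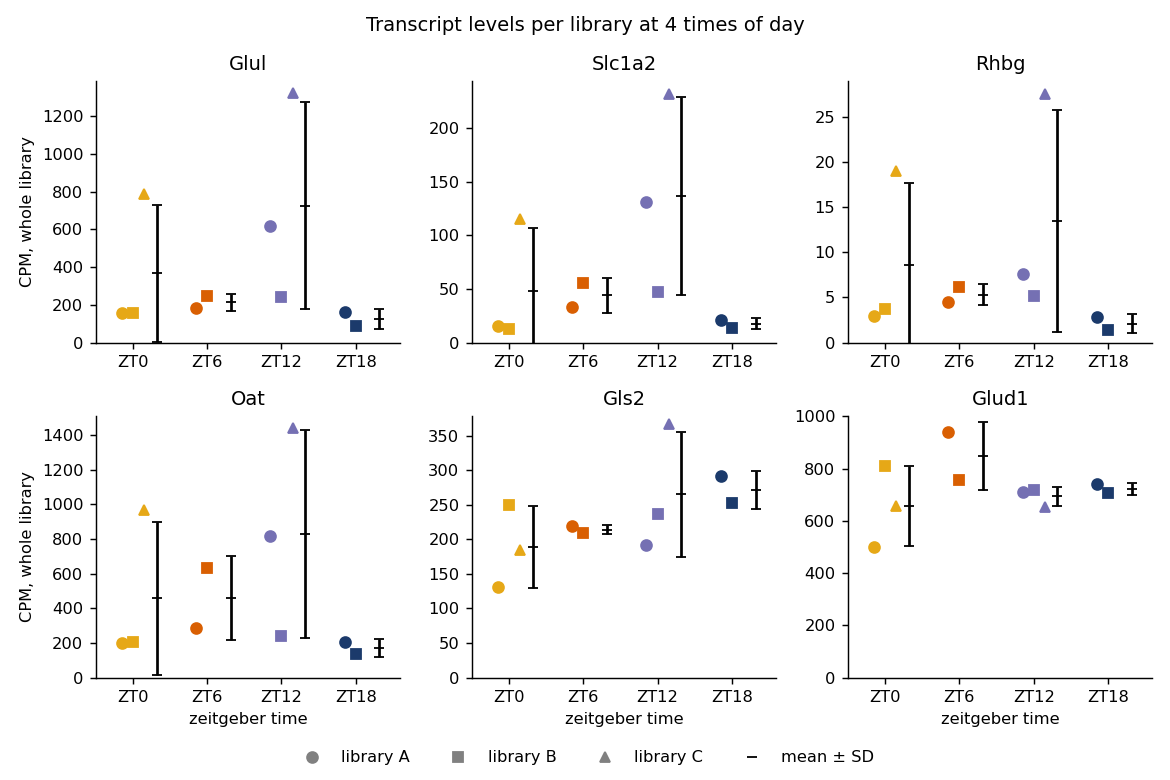
Whole-library levels of the 6 genes in CPM at 4 times; circles, squares and triangles are libraries A, B and C, and the black marks are the mean ± SD of the 2 or 3 libraries of a time, cut at 0 where the bar would pass below it. Glul, Slc1a2, Rhbg and Oat are highest in the C library at ZT0 and at ZT12, and Glud1 lies between 502 and 940 CPM throughout.

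The share of Glul-rich cells itself differed between libraries. It was 1.30%, 1.05% and 7.08% at ZT0, 2.07% and 2.43% at ZT6, 5.07%, 2.59% and 11.5% at ZT12, and 1.25% and 0.336% at ZT18. The C libraries were the highest of their time, and ZT0 and ZT12 overlapped. ZT12 exceeded ZT0 by 3.25 percentage points (exact permutation test, two-sided, p = 0.5, where 0.1 is the smallest this design allows). That test ignored the letters: ZT12 was the higher in 3 of 3 same-letter pairs, by 3.25 ± 1.51 points (SD; exact paired permutation test, two-sided, p = 0.25, the smallest that 3 pairs allow). ZT18 was 1.46 points below ZT6, with no overlap (difference of -1.46, exact permutation p = 0.333, the smallest possible).

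Within Glul-rich cells, where the share no longer enters, Slc1a2 at ZT0 averaged 779 ± 167 CPM (SD, n = 3). The ZT6 mean was 1159 ± 115 (n = 2), the ZT12 mean 1801 ± 423 (n = 3), and the ZT18 library had 911. All 3 ZT12 libraries lay above all 3 ZT0 libraries. The ratio within a letter was 3.14 (A), 1.99 (B) and 1.95 (C), and within the index column shared by ZT0B, ZT6A, ZT6B and ZT12B the values were 674, 1078, 1240 and 1340 CPM. The log2 difference of ZT12 from ZT0 was 1.13 ± 0.38 (SE), and it did not pass over all genes (edgeR adjusted p = 0.279; 0.231 with the letter as a block). Of 5 genes 0 passed there by edgeR, 2 at an unadjusted p under 0.05 (Slc1a2 and Gls2) and 0 by DESeq2, where 0.454% of 8814 genes passed. The 24-h test in Glul-rich cells also called 0 of 5 by edgeR (2 at an unadjusted p under 0.05, 0 by DESeq2) and 0.533% of all genes. Slc1a2 had an amplitude of 0.59 with its peak at ZT 11.05 (adjusted p = 0.591 by edgeR).

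In these cells Glul itself averaged 7495 ± 1482 CPM for ZT0, 6966 ± 133 for ZT6 and 9523 ± 2106 for ZT12, with 6197 in ZT18A, a description because it set the cells. Oat changed by 0.41 ± 0.42 and Rhbg by 0.17 ± 0.40 (log2, ZT12 minus ZT0, ± SE), both with an edgeR adjusted p of 1. Gls2, with 8 UMIs, allows no reading of time.

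Over the full pericentral zone edgeR called a rhythm for 0 of the 6 (0 at an unadjusted p under 0.05, 0 by DESeq2), where 2.79% of 8918 genes did. With the letter as a block Slc1a2 passed there (amplitude 1.18; edgeR adjusted p = 0.0050, against 0.397 without). Without ZT0C Slc1a2 (1.73; adjusted p = 0.0019), Glul (1.27; adjusted p = 0.0460) and Oat (1.17; adjusted p = 0.0489) passed. Without both C libraries Slc1a2 passed (1.41; edgeR adjusted p = 0.0046). With no filter on low genes Slc1a2, Glul and Oat passed (edgeR adjusted p = 1.41e-07, 0.0126 and 0.0196). Their amplitudes of 0.93, 0.69 and 0.75 were near those with the filter (0.95, 0.70 and 0.76). The counts of these genes were the same in both fits, so this is no further support. As each library was cut on its own, these zones may not cover like stretches of the lobule.

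In the periportal zone the low level of Glul, from 24 (ZT6B) to 107 UMIs (ZT12B) per library, was called rhythmic. The ZT0 mean was 31.4 ± 2.10 CPM (SD, n = 3) and the ZT6 mean 23.0 ± 4.34 (n = 2). The ZT12 mean was 73.8 ± 27.5 (n = 3) and the ZT18 mean 48.5 ± 5.13 (n = 2). All 5 libraries of ZT12 and ZT18, the lowest at 42.9, lay above all 5 of ZT0 and ZT6, the highest at 32.8. This grouping of times was not planned, and how many of all genes separate this way was not counted. The 24-h amplitude of Glul was 0.74 on the log2 scale and its fitted peak lay at ZT 15.2 (adjusted p = 0.0434 by edgeR). It was the 1 of 4 genes called there, where 4.45% of 8851 genes were. Slc1a2 and Rhbg were too low there to be tested, and Oat and Gls2 were not called (adjusted p = 0.542 and 0.839).

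That call was near the threshold. It was lost in 9 of 20 alternative fits, with an edgeR adjusted p of up to 0.150 (without both C libraries), and 7 of them left out 1 library (ZT0B, ZT0C, ZT6A, ZT6B, ZT12A, ZT12C or ZT18A; adjusted p = 0.0613 to 0.0975). Periportal Glul was above its ZT0 and ZT6 level at ZT18, where the mean of whole-library Glul was lowest (124 ± 54.4 CPM, n = 2). ZT18A, at 163 CPM, nonetheless lay above ZT0A and ZT0B, both at 156. Both ZT18 libraries are in the index column that no other time used, so time and column cannot be told apart there. The source of the periportal level was not tested.

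Whether the rhythm differs between zones was tested directly. Of the 6 genes 0 passed by edgeR (1, Glul, at an unadjusted p under 0.05, and 0 by DESeq2), where 0.0449% of 8904 genes passed. As log2(CPM + 1), periportal less pericentral Glul was -4.35 ± 1.53 for ZT0, -4.58 ± 0.12 for ZT6, -4.50 ± 0.75 for ZT12 and -2.38 ± 0.71 for ZT18 (SD), with both ZT18 libraries (-2.88 and -1.88) nearer 0 than the other 8. Its fitted amplitude was 1.22 (edgeR adjusted p = 0.423). It passed without ZT0C (1.27, edgeR adjusted p = 7.8e-05) and when cells of all libraries were ordered together (1.22, adjusted p = 0.0071). With no filter on low genes it passed as well (edgeR adjusted p = 1.42e-10). There the counts were the same and the amplitude stayed at 1.22, so this is no further support.

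**Figure D4:**
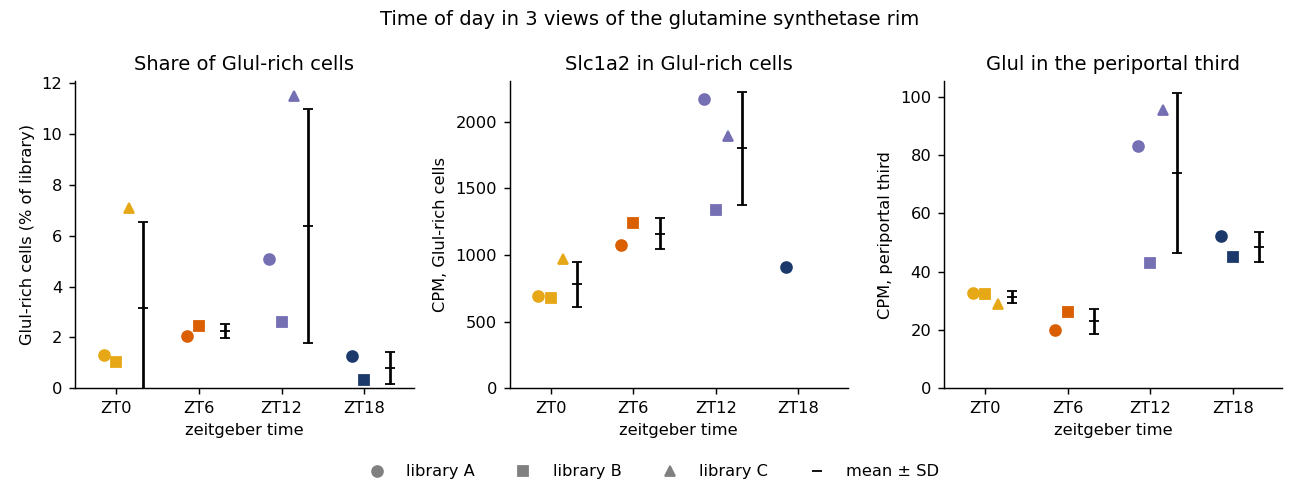
Time of day in 3 measurements: the share of Glul-rich cells in percent of a library, Slc1a2 in Glul-rich cells in CPM, and Glul in the periportal zone in CPM; circles, squares and triangles are libraries A, B and C, black marks are the mean ± SD. The shares of ZT0 and ZT12 overlap, the 3 ZT12 libraries lie above the 3 ZT0 libraries for Slc1a2, and the 5 libraries of ZT12 and ZT18 lie from 42.9 CPM upwards for periportal Glul while the other 5 lie at or below 32.8.

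Other enzymes of glutamine and glutamate were taken from a list of 25, of which 17 were tested. Between zones 3 of the 17 differed, where 24.5% of all genes did, and all 3 were periportal: Aspg, an asparaginase (log2 difference 1.47 ± 0.15, SE), Got1, the cytosolic aspartate aminotransferase (1.05 ± 0.08), and Gpt, the alanine aminotransferase (0.37 ± 0.07). The list's median was 0.12, against 0.00 (0.00121) over all genes. The lowest edgeR adjusted p for a whole-library rhythm in the list was 0.0607, for Got1. Between ZT12 and ZT0, 2 of the 17 were called, where 3.44% of all genes were. These were Gpt2 (log2 0.93 ± 0.20, SE, edgeR adjusted p = 0.0173) and Got1 (1.02 ± 0.26, edgeR adjusted p = 0.0474), both higher at ZT12. Between ZT18 and ZT6, Aspg alone was called (-1.02 ± 0.26, edgeR adjusted p = 0.0476), where 3.79% of all genes were.

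Ornithine and proline enzymes differed in both directions. Of 14 tested of 18 listed, 4 were pericentral and 3 periportal, with a median of -0.04 (24.5% of all genes differed in either direction). Prodh, the proline dehydrogenase, had a log2 difference of -0.85 ± 0.08 (SE) and Sms, spermine synthase, -0.70 ± 0.16. Aldh4a1, which oxidises glutamate semialdehyde, the product of Oat, had -0.35 ± 0.07, with means of 241 ± 69.7 CPM pericentrally and 173 ± 44.6 CPM periportally, lower periportally in 10 of 10 libraries. Odc1, ornithine decarboxylase, went the other way (0.49 ± 0.08). Odc1 and Srm, which makes spermidine, were the 2 of 14 called rhythmic (5.14% of all genes were), with amplitudes of 0.78 and 0.78 and peaks at ZT 18.7 and 16.6. Prodh was also higher in Glul-rich than in other pericentral cells (0.73 ± 0.14; edgeR adjusted p = 6.9e-06), and Odc1 was lower there (-0.72 ± 0.19).

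Among 14 carriers tested of 28 listed, 7 were periportal and 2 pericentral, where 24.5% of all genes differed. The 4 largest differences were those of Aqp9, a glycerol and urea channel (-1.31 ± 0.09), Slc7a2, a cationic amino acid carrier (1.06 ± 0.07), Aqp8, a water channel that also passes ammonia (0.999 ± 0.10), and Slc25a12, a mitochondrial aspartate-glutamate carrier (0.89 ± 0.17). Of the 4 of 14 called rhythmic, where 5.14% of all genes were, Aqp8 (amplitude 1.52) peaked at ZT 23.7 and Slc7a2 (1.16) at ZT 9.26. The list's median zone difference was 0.25.

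Urea cycle enzymes lay opposite to the rim. Of the 4 that were no landmarks, 3 were periportal: Arg1, arginase (log2 difference 0.77 ± 0.10, SE), Cps1, which takes ammonia into the cycle (0.75 ± 0.08), and Otc (0.40 ± 0.07), with a list median of 0.57 and 24.5% of all genes differing. Their zone differences were modest, yet inside the rim Cps1 and Arg1 were far lower than in neighbouring pericentral cells. The log2 differences were -4.14 ± 0.13 for Cps1 (edgeR adjusted p = 3.7e-209) and -2.67 ± 0.14 for Arg1. Otc was lower to a smaller degree (-1.09 ± 0.13), and Nags was not called there. Arg1 was the 1 of 6 with a whole-library rhythm, where 5.14% of all genes had one (amplitude 0.60, peak at ZT 17.7).

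Wnt and beta-catenin targets, known for their place at the central vein, were pericentral in 7 of 10 tested of 18 listed, with a median of -1.91, where 24.5% of all genes differed. Lgr5, an R-spondin receptor, had -5.52 ± 0.50, Tbx3, a transcription factor, -4.66 ± 0.24, Tnfrsf19 -3.81 ± 0.46 and Axin2, a feedback inhibitor of the pathway, -3.45 ± 0.38 (log2 ± SE). In Glul-rich against other pericentral cells 5 of 13 were higher and 2 lower, where 5.36% of all genes differed. Tbx3 was higher by 1.31 ± 0.22 and Lgr5 by 1.54 ± 0.38, while Ccnd1, a cyclin, was lower (-5.12 ± 0.67; edgeR adjusted p = 5.0e-12). The lowest edgeR adjusted p for a whole-library rhythm in the list was 0.0536, for Ccnd1.

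Patterns over the 80 sums of 10 libraries and 8 layers were compared last, as Pearson r of log2(CPM + 10) after each library's mean was subtracted. The layers share the cell order and the depth of their library, so r is a description. Slc1a2 was nearest to Glul (r = 0.961), and Lpl, lipoprotein lipase, was also among its nearest (0.917). Slc1a2 was in turn nearest to Glul, with Mup17 (0.896) also among its nearest, and Rhbg was nearest to Slc1a2 (0.864), Glul (0.857) and Lpl (0.784). The nearest to Oat were the cytochromes Cyp2c37 (0.976) and Cyp4a10 (0.963) and the transporter Slco1b2 (0.963), and its r with Glul was 0.915. Gls2 was nearest to the landmark Cyp2f2 (0.974), Etnppl (0.974) and Sfxn1 (0.967), and its r with Oat was -0.964. Glud1 was nearest to Acsl1 (0.828), Sord (0.818) and Crot (0.818). Mup17 and the cytochromes have close relatives, and how reads shared with them were counted is not given in the sources used here.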

How the data were processed

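Per the labels' protocols, hepatocytes were profiled with the 10x Chromium 3' kit, and the submitters' processing notes name Cell Ranger and the builds mm10 and hg19. The authors deposited raw UMI counts per gene and cell, used here as deposited; their filter on cells, and whether doublets were removed, are not given in the sources used here. No doublet caller was run and all deposited cells were kept; dropping the deepest 5% of cells was an alternative. The 6 genes and the gene and marker lists were chosen with earlier results of these data known.

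Counts were summed per library, zone, layer or cell class and tested with edgeR 4.0.16 in R 4.3.3 (quasi-likelihood, TMM, mean CPM of at least 3, Benjamini-Hochberg over all genes, threshold 0.05). TMM factors were 0.888 to 1.143 over whole libraries. Zones, layers and Glul-rich contrasts kept the library as a block. Rhythm was a 2-df test of the cosine and sine of 24 h. Cells were ordered within a library by the mean z-score of 8 periportal minus 7 pericentral landmarks. Scores from odd and even landmarks correlated at r = 0.663 to 0.833 across cells. Landmarks are left out of counts of calls. The fits were tested on simulated data. Named genes were the 6, up to 4 per list with the largest zone difference and up to 2 with the largest rhythm, and the 3 most alike in pattern, of which 1 gene is not reported here. Some genes of the lists are named for the Glul-rich contrast or for pairs of times, where they were chosen after their values were seen.

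Letters paired ZT0 with ZT12: deviations from the time means correlated at r = 0.239, 0.42 and 0.473 for same-letter libraries, which also share an index column, and at or below -0.106 for others. ZT6 and ZT18 letters did not pair (r = 0.0262), but the replicate block still gave each letter a common effect over all 4 times. The tests within Glul-rich cells, the joint order of all cells, the fits without both C libraries and the paired test of the Glul-rich share were added after seeing the data. Alternatives also covered DESeq2 1.42.0, library size, filters, landmarks, thresholds and single libraries. Sequences and positions are RefSeq GRCm38.p6, matched by symbol for 4 of 6 promoters and 6 of 6 genes.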

Additional observations from a re-analysis of the deposited data

How the results depend on the processing

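The zone calls of the 6 genes and the calls of Slc1a2, Rhbg, Oat and Gls2 in Glul-rich cells kept their direction and side of the threshold under every alternative run. Counts over all genes moved more, and the cause was not tested except where fewer libraries entered. DESeq2 called 792 genes for the whole-library rhythm, 0 for the zone-dependent rhythm, 299 in Glul-rich cells, and 18 for rhythm and 12 for ZT12 against ZT0 within them. At a mean of at least 20 CPM these counts were 283 (whole-library rhythm), 199 (ZT18 against ZT6), 153 (pericentral rhythm), 0 (zone-dependent), and 26 and 26 within Glul-rich cells. With no filter they were 710 (whole-library rhythm), 469 (ZT12 against ZT0), 595 (ZT18 against ZT6), 4 (layer 8 against layer 7), 676 (pericentral), 826 (periportal) and 37 (zone-dependent). With the letter as a replicate block the counts were 749 for the whole-library rhythm, 504 for ZT12 against ZT0, 730 for ZT18 against ZT6, 435 for the pericentral rhythm and 27 for rhythm within Glul-rich cells; among the 6 genes the block changed no call but those of Slc1a2 given above. Without both C libraries there were 147 (ZT12 against ZT0), 250 (periportal rhythm), 24 (rhythm within Glul-rich cells) and 13 (ZT12 against ZT0 within them). Odd-numbered landmarks gave 80 for layer 1 against layer 2, 1 for layer 8 against layer 7 and 2 for the zone-dependent rhythm. For that rhythm, even-numbered landmarks gave 0, as did dropping the 5% of cells of highest depth, while library size alone gave 7 and a joint order of all cells 19; the joint order gave 341 for layer 1 against layer 2. Layer 1 alone gave 253 in the Glul-rich contrast.

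Leaving out single libraries gave 228 to 465 for the whole-library rhythm, 214 to 314 for ZT12 against ZT0, 50 to 494 for ZT18 against ZT6, 123 to 332 for the pericentral and 225 to 439 for the periportal rhythm, 0 to 32 for the zone-dependent rhythm, 0 to 1 for layer 8 against layer 7, 29 to 47 for rhythm and 22 to 39 for ZT12 against ZT0 within Glul-rich cells. Where a time kept 1 library, it was assumed to vary like the others. Directions turned only for values that passed no test. Glud1 between ZT12 and ZT0 (-0.05) was 0.0823 with library size, 0.0034 without both C libraries and -0.17 to 0.13 over single libraries. Glud1 between layers 1 and 2 was -0.0339 with even-numbered landmarks and -0.0282 with the joint order (-0.00273 to 0.0327 over single libraries). Glud1 between layers 8 and 7 was -0.0485 with odd-numbered landmarks and -0.0590 with the joint order (-0.00654 to 0.0286 over single libraries). Glud1 in Glul-rich cells was 0.172, 0.103 and 0.0699 with library size, DESeq2 and at least 20 CPM. Rhbg between layers 8 and 7 was 0.35 with the joint order. Rhbg between ZT12 and ZT0 ran from -0.58 to 1.66 over single libraries, and from -0.21 to 0.58 within Glul-rich cells. Precision is limited by Rhbg, by Gls2 in the rim and by the 6 Glul-rich cells of ZT18B.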
